A study of Mus musculus with 16 samples.

Results

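Excitation-contraction coupling and calcium handling in quadriceps muscle was described through 35 genes, listed by name for their known roles, with earlier results of these data already known. All 35 were found in the table of 18873 entries, 34 by symbol and 1, Mcu, under its older symbol Ccdc109a. Of these, 34 had a mean of at least 1 FPKM (fragments per kilobase of transcript, scaled to the fragments of the library) over the 16 mice and were tested with the other genes that met this minimum, 10519 in all. The ryanodine receptor isoform Ryr3 had a mean of 0.0966 FPKM and was not tested. Rrad passed the minimum only through its exercised groups, and Gem passed narrowly with a mean of 1.04 FPKM.

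The question behind the samples was how treadmill exercise changes muscle transcripts when CaMKIIγ, a calcium- and calmodulin-dependent kinase, can or cannot be activated by oxidation. Whole quadriceps were taken from male C57BL/6J mice aged 13 to 15 weeks, either MM (WT) littermates or homozygous CaMK2gVV/CaMK2gVV knock-in mice (VV), in which the oxidizable methionine pair of the regulatory domain is replaced by valines. Each genotype gave 4 sedentary mice (at rest) and 4 exercised mice (after the run), and the exercised mice had run 350 m on an inclined treadmill and rested for 3 h without food before the muscle was taken. The protocol describes acclimation to the treadmill and a rest before collection without saying separately how sedentary mice were handled, and mice that did not finish the run were left out by the study. The knock-in is not limited to muscle, and expression values do not show which allele a mouse carried, so the genotype labels were not checked.

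In a skeletal muscle fibre, an action potential enters the T-tubules and moves the voltage-sensing dihydropyridine receptor. That receptor opens the ryanodine receptor of the sarcoplasmic reticulum by direct contact, and the released calcium starts contraction. SERCA pumps return the calcium to the reticulum, where calsequestrin holds it, while parvalbumin buffers it in the cytosol of fast fibres and STIM and ORAI proteins let calcium enter from outside when the stores run low. RGK GTPases, of which RRAD and GEM are members, inhibit voltage-gated calcium channels.

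SERCA is held back by single-span micropeptides, and the coding sequences of 3 of them are shown because they are short regulators of the pump and differed widely in level. They are read 5′ to 3′ from the plus strand of GRCm38 in the GENCODE vM21 annotation, with the stop codon in capitals, at chr10:70219496-70219636 for Mrln (myoregulin), chr9:53853473-53853568 for the member Sln (sarcolipin) and chr10:53343864-53344022 for Pln (phospholamban). They hold 46, 31 and 52 codons before the stop.
Mrln: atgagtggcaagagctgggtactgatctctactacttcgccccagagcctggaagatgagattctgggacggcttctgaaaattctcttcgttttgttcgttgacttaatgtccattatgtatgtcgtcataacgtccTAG
Sln: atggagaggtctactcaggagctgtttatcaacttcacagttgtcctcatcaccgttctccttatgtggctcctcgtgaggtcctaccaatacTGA
Pln: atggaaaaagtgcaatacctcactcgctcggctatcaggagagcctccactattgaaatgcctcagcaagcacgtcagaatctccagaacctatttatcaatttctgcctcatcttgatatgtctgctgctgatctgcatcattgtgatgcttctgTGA
Mrln, listed as 2310015B20Rik, had a mean of 113 FPKM over the 16 mice, Sln had 9.43 FPKM and Pln had 1.25 FPKM. The lowest Mrln level, 81.2 FPKM, lay above the highest Sln level, 14.3 FPKM, and the lowest Sln level, 2.53 FPKM, above the highest Pln level, 1.96 FPKM, so the 3 did not overlap in these mice.

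Promoter windows from RefSeq (GRCm38.p6), 250 bases before to 50 after the annotated start, were available for 22 of the 35 members. The 250 bases before the start are printed for Pvalb and for the calsequestrin pair Casq1 and Casq2, because Pvalb and Casq1 are among the most abundant members and the pair differs widely in level. They lie at chr15:78206401-78206650 on the minus strand, chr1:172219896-172220145 on the minus strand and chr3:102086165-102086414 on the plus strand, and are written 5′ to 3′ with E-boxes (CANNTG) and matches to the MEF2 site in capitals.
Pvalb: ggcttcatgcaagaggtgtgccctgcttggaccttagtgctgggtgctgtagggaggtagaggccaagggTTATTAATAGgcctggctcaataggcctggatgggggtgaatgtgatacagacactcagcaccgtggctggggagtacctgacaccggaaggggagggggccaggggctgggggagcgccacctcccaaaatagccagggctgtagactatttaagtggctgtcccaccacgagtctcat
Casq1: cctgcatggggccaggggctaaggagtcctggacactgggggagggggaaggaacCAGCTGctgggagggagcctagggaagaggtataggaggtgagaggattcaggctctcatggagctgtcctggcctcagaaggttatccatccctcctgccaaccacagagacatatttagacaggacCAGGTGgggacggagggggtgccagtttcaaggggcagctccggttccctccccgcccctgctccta
Casq2: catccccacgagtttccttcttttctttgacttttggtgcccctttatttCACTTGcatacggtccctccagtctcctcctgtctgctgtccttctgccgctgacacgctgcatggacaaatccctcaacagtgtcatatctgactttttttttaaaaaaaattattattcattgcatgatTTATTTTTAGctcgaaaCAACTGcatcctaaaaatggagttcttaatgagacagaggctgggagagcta
A MEF2 match was present in 2 of the 22 member windows, Pvalb and Casq2, and in 3.26% of 27025 promoter windows of the same length. E-boxes were present in 16 of the 22 and in 72.1% of all windows. The CRE core TGACG, which also lies within the full CRE TGACGTCA, was found in 7 of the 22, among them Stim1, Slc8a3 and Fkbp1a, against 21% of all windows. The full CRE and the CArG box were found in none of the 22 (1.88% and 1.57% of all windows), AP-1 (TGANTCA) in Mcu alone (7.93%) and NBRE (AAAGGTCA) in Jph2 alone (1.46%). Both strands were searched, and a match describes letters in a window only.

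The libraries resembled each other in overall scale. Relative depth ranged from 1 to 1.23, and no library was identical to another (correlation across genes 0.956 to 0.986). Skeletal muscle markers were high in every mouse, with a summed level of 25077 to 49296 FPKM over 8 genes. Of the heart markers, Nppa, Myl7 and Tnni3 were each under 1 FPKM, while Myh6 shares 1 entry with the slow myosin Myh7. The summed level of 5 macrophage markers was 8.43 to 11.5 FPKM at rest and 10.1 to 28.4 after the run in MM. In VV it was 6.16 to 20.7 at rest and 7.72 to 24.8 after the run. Of the 4 tested, 0 passed the test for exercise, with a median log2 difference of 0.86 in MM and -0.06 in VV. An unadjusted p under 0.05 was reached by 2 in MM and 0 in VV, beside 10.7% and 10.1% of all genes. The summed level of 5 fibroblast markers was 254 to 391 FPKM at rest and 314 to 545 after the run in MM. In VV it was 236 to 460 at rest and 277 to 461 after the run. Their median log2 difference was 0.42 in MM and 0.0006 in VV, with 2 and 0 at an unadjusted p under 0.05 and 0 called. Of 6 endothelial markers, 1 passed as higher and 1 as lower for exercise over both genotypes, beside 3.14% of all genes tested. The part of these cells in the results below was not tested.

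Calcium handling transcripts made up 5.52 to 6.53% of all FPKM in each library. Pvalb and Atp2a1 accounted for most of it. Levels per transcript length ranged from the buffer Pvalb at a mean of 12594 FPKM, rank 7 of 10519, to Gem at rank 10451. The median coefficient of variation within groups was 10.9% over the 34 members, against 13.5% over all tested genes. At means of 10 FPKM or more it was 9.79% over 27 members and 10.4% over 4239 genes, so the gap was smaller at like levels. Over the 34 members it ran from 3.65% for Stim1 to 53.6% for Rrad.

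**Figure D1:**
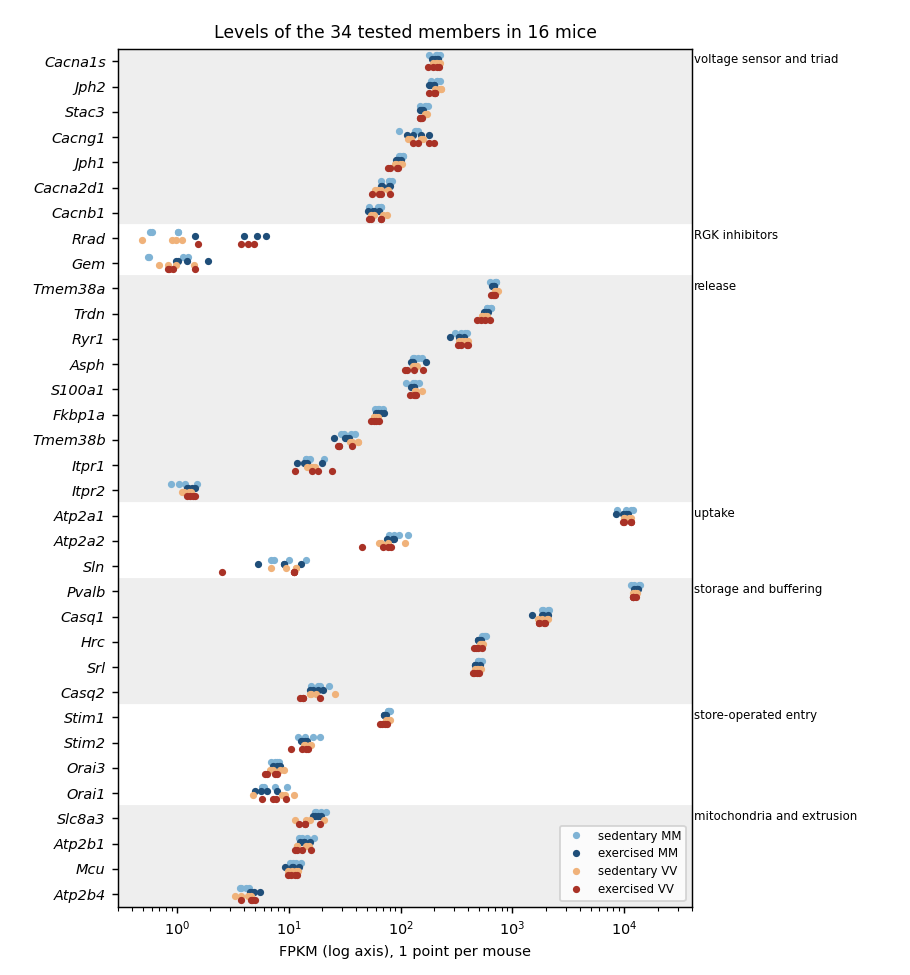
FPKM on a log axis of the 34 tested members, ordered by role and then by mean, with 1 point per mouse and 4 mice in each of the 4 groups. Pvalb and Atp2a1 lie at the top in every mouse, and the exercised mice stand apart from the sedentary mice in the row of Rrad only.

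Rrad, an RGK GTPase, was the member called for exercise. It met the minimum of 1 FPKM only through its exercised groups, with sedentary means of 0.806 FPKM in MM and 0.872 in VV. It rose 4.36-fold in MM (95% interval 2.37 to 8.02, log2 difference 2.12 ± 0.41 SE, adjusted p = 0.016, n = 4 mice per group, limma). In VV the fold difference was 3.65 (1.99 to 6.71), with a log2 difference of 1.87 ± 0.41 SE and adjusted p = 0.0837, which missed the threshold of 0.05. Over both genotypes Rrad rose 3.99-fold (2.60 to 6.14, log2 2.00 ± 0.29 SE, adjusted p = 0.000911). The 2 exercise effects differed by -0.26 on the log2 scale (VV minus MM, 95% interval -1.50 to 0.99), a difference that did not pass the test.

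Sedentary MM mice had 1.02, 0.605, 0.581 and 1.02 FPKM of Rrad, and exercised MM mice had 6.24, 5.22, 1.46 and 4.03 FPKM. Sedentary VV mice had 0.897, 1.11, 0.487 and 0.988 FPKM, and exercised VV mice had 4.87, 3.72, 1.54 and 4.33 FPKM. All 8 exercised mice lay above all 8 sedentary mice, and 1 mouse of each exercised group, 2246-4 in MM and 2296-2 in VV, lay nearer the sedentary mice than the rest of its group. In whole muscle, more cells with a transcript and more transcript per cell cannot be told apart. The gene lies at chr8:104628070-104631350 (GRCm38.p6).

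The Rrad call in MM depended on which mice were in the fit. Without any 1 of sedentary MM mice 2074-1 and 2127-1 or exercised MM mice 2161-4, 2161-9 and 2297-3 the log2 difference was 1.88 to 2.09 and the adjusted p 0.0504 to 0.0692, and without 2246-4 the log2 difference was 2.56. In VV, the call passed without exercised mouse 2296-2 (log2 2.22, adjusted p = 0.0153) or without the MM mouse 2246-4 (log2 1.87, adjusted p = 0.014), and with median-ratio scaling (adjusted p = 0.0482) or quantile scaling (adjusted p = 0.0475). Over both genotypes it passed without each of the 16 mice in turn.

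Gem, the other RGK member, had a group mean of 0.881 FPKM ± 0.374 (SD, n = 4) at rest and 1.29 ± 0.424 after the run in MM, and 0.987 ± 0.318 at rest and 1.02 ± 0.298 after the run in VV. The sedentary MM mice had 0.555, 0.565, 1.14 and 1.26 FPKM and the exercised MM mice had 1.24, 1.90, 0.984 and 1.02 FPKM. The sedentary VV mice had 0.840, 0.980, 1.43 and 0.698 FPKM and the exercised VV mice had 0.931, 0.847, 0.834 and 1.46 FPKM. These groups overlapped, and the log2 difference with exercise in MM was 0.54 (95% interval -0.08 to 1.15, adjusted p = 0.533).

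**Figure D2:**
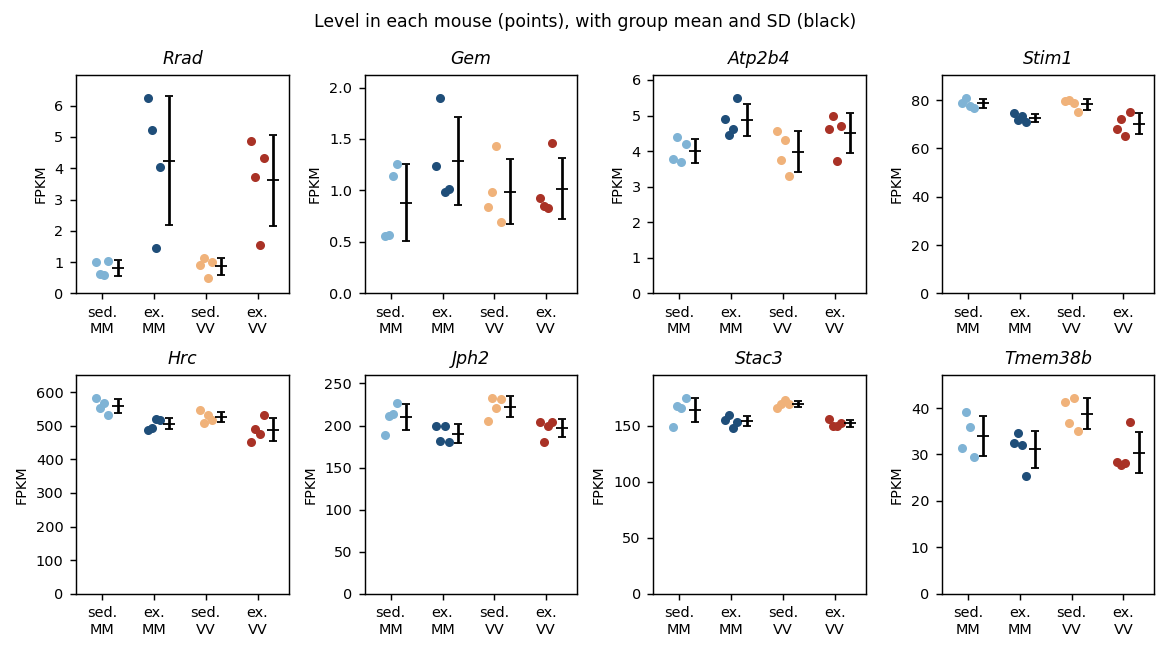
FPKM of 8 members in each mouse by group, with the group mean and SD in black and a vertical axis from 0 in each panel. In Rrad the 8 exercised mice, from 1.46 to 6.24 FPKM, lie above the 8 sedentary mice, from 0.487 to 1.11 FPKM, while the differences in Stim1, Hrc, Jph2 and Stac3 are small against the level.

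Across all 34 members, 1 passed the test for exercise in MM (1.23% of all genes tested passed), 0 passed in VV (0.276%) and 1 passed over both genotypes (3.14%), and each was Rrad. At an unadjusted p under 0.05, 3 of 34 were reached in MM (10.7% of all genes), 5 in VV (10.1%) and 7 over both genotypes (18.7%), of which 5 were lower in exercised mice (12.9% of all genes). These shares lay near those of all genes. The median log2 difference of the members was -0.08 in MM and -0.06 in VV, against -0.05 and -0.08 over all genes tested.

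Over both genotypes 28 of 34 members were lower in exercised mice on the deposited scale, as were 70.55% of all genes. With median-ratio scaling, which moved the median of all genes by 0.06, 17 of 34 were lower. With quantile scaling, which moved it by 0.03, 26 of 34 were lower, so this lean depended on the kind of scaling. The 95% interval of the difference lay within a 1.5-fold change for 30 of 34 members in MM and 26 in VV, and for 31 over both genotypes. Of all 10519 genes tested it did so for 7852, 8023 and 9224.

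**Figure D3:**
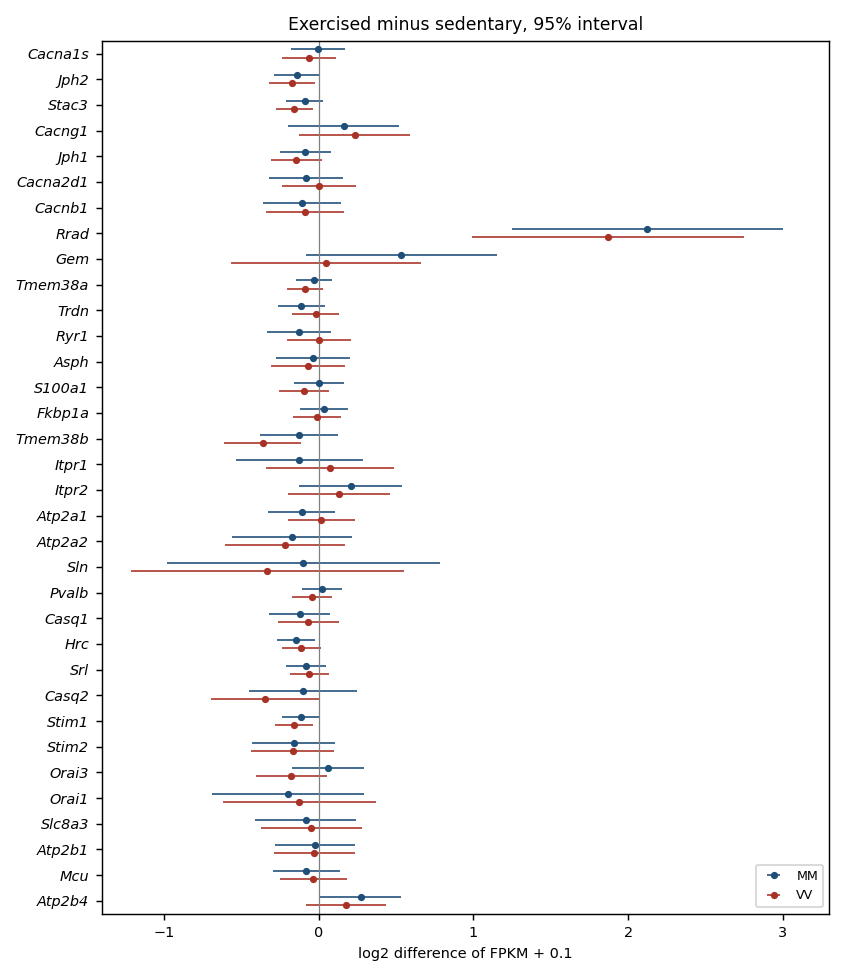
Log2 difference between exercised and sedentary mice of each of the 34 members with its 95% interval, in MM (blue) and VV (red), 4 mice per group. The interval of Rrad lies wholly above 0 in both genotypes (1.25 to 3.00 in MM and 0.99 to 2.75 in VV), and those of most other members span 0.

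Among the members of the voltage sensor and triad, the pore and voltage-sensing subunit Cacna1s and the junctophilin Jph2, which ties the T-tubule to the reticulum, had the highest levels, with means of 206 and 205 FPKM. Cacna1s was 181, 213, 224 and 209 FPKM at rest and 215, 204, 214 and 189 after the run in MM, and 206, 196, 226 and 211 at rest and 196, 223, 176 and 211 after the run in VV. Its groups overlapped in every comparison, and its interval with exercise in MM was -0.18 to 0.17 on the log2 scale.

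Jph2 was 189, 211, 214 and 226 FPKM in sedentary MM and 200, 182, 199.5 and 181 in exercised MM. It was 205, 232, 221 and 232 FPKM in sedentary VV and 205, 181, 199.8 and 204 in exercised VV, where the highest exercised mouse (204.7 FPKM) lay just below the lowest sedentary mouse (204.96 FPKM). Its log2 difference over both genotypes was -0.16 (95% interval -0.26 to -0.05, adjusted p = 0.101), which missed the threshold, and without sedentary MM mouse 2032-3 it passed (adjusted p = 0.0484). With median-ratio scaling it was -0.10 (adjusted p = 0.478). Stac3, the adaptor between voltage sensor and release channel, was similar. It was 166 to 173 FPKM at rest and 150 to 156 after the run in VV without overlap, with a log2 difference of -0.16 ± 0.06 SE in VV (adjusted p = 0.364) and -0.12 over both genotypes (adjusted p = 0.114), and it also passed over both genotypes without mouse 2032-3. With median-ratio scaling its difference in VV was -0.07 (adjusted p = 0.963).

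Without overlap between the groups, 2 members were higher in exercised MM mice (Rrad and the plasma membrane pump Atp2b4, against 3.39% of all genes) and 2 lower (Hrc and Stim1, 3.35%). In VV, 1 was higher (Rrad, 1.4%) and 2 lower (Stac3 and Jph2, 3.52%). The members without overlap other than Rrad were not the same in MM and VV, and none of them passed the test in either genotype.

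The other triad members were the beta subunit Cacnb1 (mean 61.2 FPKM), the gamma subunit Cacng1 (143 FPKM), the alpha2-delta subunit Cacna2d1 (71.1 FPKM) and the junctophilin Jph1 (94.8 FPKM). None of the 7 triad members passed the test for exercise, and their median log2 difference over both genotypes was -0.10, against -0.06 for all genes.

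Of the release members, the counter-ion channel TRIC-A, encoded by Tmem38a, and triadin (Trdn), which anchors calsequestrin near the ryanodine receptor, were the most abundant. Tmem38a was 626, 707, 716 and 699 FPKM at rest and 687, 667, 681 and 659 after the run in MM, and 705, 696, 749 and 732 at rest and 674, 698, 648 and 688 after the run in VV. Trdn was 589, 649, 650 and 597 FPKM at rest and 554, 565, 602 and 579.9 after the run in MM, and 590.5, 530.3, 538 and 570.05 at rest and 486, 569, 523 and 628 after the run in VV. The groups of both genes overlapped with exercise.

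The release channel itself, Ryr1, had a mean of 354 FPKM (275 to 401) and was 1.72 times as high as Cacna1s in the median mouse (1.45 to 2.00). The minor counter-ion channel TRIC-B, Tmem38b, had a mean of 33.6 FPKM. In VV it was 38.8 FPKM ± 3.41 (SD, n = 4) in sedentary and 30.4 ± 4.45 in exercised mice, a log2 difference of -0.36 (95% interval -0.61 to -0.11) with an unadjusted p of 0.00721 and an adjusted p of 0.299 from limma. Mouse 2296-3, at 37.0 FPKM, lay within the sedentary range there. Asph had 135 FPKM for the whole gene, with junctin among its products and not measured apart. Asph, S100a1, an EF-hand protein that binds the channel (133 FPKM), and Fkbp1a, the channel's FKBP12 partner (61.9 FPKM), did not pass the test for exercise. Nor did the inositol trisphosphate receptors Itpr1 (16.2 FPKM) and Itpr2 (1.27 FPKM).

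Uptake was dominated by Atp2a1, which encodes SERCA1, the pump of fast fibres. It was 8527, 11587, 12019 and 10402 FPKM at rest and 10757, 10263, 9770 and 8460 after the run in MM, and 9885, 9856, 11422 and 11092 at rest and 11462, 11596, 9780 and 9995 after the run in VV. Atp2a2, which encodes SERCA2, the pump of slow fibres and heart, was 116, 87.5, 97.0 and 79.6 FPKM at rest and 76.1, 85.2, 85.9 and 87.1 after the run in MM, and 110.4, 63.8, 67.5 and 77.7 at rest and 70.2, 76.7, 45.6 and 82.7 after the run in VV. Groups overlapped for both pumps, and in the median mouse Atp2a1 was 132 times as high as Atp2a2 per length (73.6 to 214).

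Sln was 9.70 FPKM ± 3.39 (SD, n = 4) at rest and 9.08 ± 3.03 after the run in MM, and 9.95 ± 2.27 at rest and 8.99 ± 4.30 after the run in VV. In the last group 1 mouse, 2296-2, had 2.53 FPKM and the other 3 had 11.1 to 11.2 FPKM. No uptake member passed any comparison.

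The stores and buffers were led by Pvalb, which was 11374, 12263, 13600 and 13828 FPKM at rest and 13099, 13040, 12233 and 13286 after the run in MM, and 12561, 11960, 13053 and 12544 at rest and 11931, 12076, 11968 and 12688 after the run in VV. Casq1, the calsequestrin of fast fibres, was 1832, 1875, 2081 and 2142 FPKM at rest and 1867, 1853, 1506 and 2088 after the run in MM, and 1853, 1706, 2044 and 2079 at rest and 1729, 1719, 1958 and 1926 after the run in VV. The groups overlapped for both genes. Casq2, the slow-fibre and heart calsequestrin whose promoter is printed above, had a mean of 17.5 FPKM, and Casq1 was 111 times as high in the median mouse (71.2 to 156).

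Hrc, the histidine-rich calcium-binding protein of the reticulum, was 532 to 582 FPKM in sedentary MM and 489 to 521 in exercised MM, and in VV 509 to 546 FPKM at rest and 451 to 533 after the run. Its log2 difference was -0.14 ± 0.06 SE in MM (adjusted p = 0.366) and -0.13 ± 0.04 SE over both genotypes (adjusted p = 0.109). The MM groups did not overlap and the VV groups did, and without exercised VV mouse 2296-3 the call over both genotypes passed (adjusted p = 0.0490). With median-ratio scaling the difference over both genotypes was -0.07 (adjusted p = 0.452). Sarcalumenin, encoded by Srl, had a mean of 487 FPKM and its log2 difference over both genotypes was -0.07 (adjusted p = 0.387).

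In store-operated entry the reticulum sensor Stim1 had the smallest spread of all members. It was 78.9, 80.8, 77.7 and 76.9 FPKM in sedentary MM and 74.6, 71.7, 73.4 and 71.0 in exercised MM, without overlap. It was 79.4, 79.8, 78.7 and 74.9 FPKM in sedentary VV and 68.1, 72.0, 65.2 and 75.1 in exercised VV, where 1 exercised mouse lay above the lowest sedentary mouse. The log2 difference over both genotypes was -0.14 ± 0.04 SE (95% interval -0.22 to -0.05, unadjusted p = 0.00427, adjusted p = 0.088, limma), the nearest of the members that missed the threshold. With median-ratio scaling it was -0.08 (adjusted p = 0.364).

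Its paralog Stim2 was 18.9, 16.6, 14.0 and 12.2 FPKM at rest and 13.1, 14.5, 13.9 and 12.9 after the run in MM, and 14.1, 15.7, 13.7 and 15.5 at rest and 13.1, 10.5, 14.4 and 14.8 after the run in VV, with overlap. The channels Orai1 and Orai3 had means of 7.37 and 7.60 FPKM, and Stim1 was 9.89 times as high as Orai1 in the median mouse. Neither channel passed the test for exercise.

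For extrusion and mitochondrial uptake, the sodium-calcium exchanger Slc8a3 (NCX3) and the plasma membrane pump Atp2b1 had the highest levels. Slc8a3 was 21.7, 19.4, 17.5 and 17.1 FPKM at rest and 19.5, 17.0, 16.5 and 18.3 after the run in MM, and 20.9, 14.3, 15.4 and 11.5 at rest and 14.0, 19.2, 12.5 and 13.9 after the run in VV. Atp2b1 was 16.8, 14.6, 13.1 and 12.3 FPKM at rest and 12.7, 13.7, 13.8 and 15.6 after the run in MM, and 15.3, 14.2, 11.8 and 11.9 at rest and 11.4, 11.8, 13.3 and 15.7 after the run in VV. These groups overlapped.

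Atp2b4, a second plasma membrane pump, was 3.70 to 4.39 FPKM in sedentary MM and 4.47 to 5.49 in exercised MM, without overlap. Its log2 difference was 0.27 (95% interval 0.01 to 0.53, adjusted p = 0.44) in MM and 0.22 ± 0.09 SE over both genotypes (adjusted p = 0.18). Mcu, the pore of the mitochondrial uniporter, had a mean of 11.1 FPKM and 9.26 to 12.8 FPKM in single mice.

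In the comparison of VV with MM, no member passed the test. In sedentary mice 0 of 34 passed (0.00951% of all genes) and 1 had an unadjusted p under 0.05 (4.47% of all genes). In exercised mice 0 of 34 passed (0% of all genes) and 0 had an unadjusted p under 0.05 (7.08%). Over both treatments 0 of 34 passed (0.00951%) and 5 had an unadjusted p under 0.05, all 5 lower in VV (13.1% of all genes in either direction and 9.6% lower). Of the 1375 genes at this p, 1010 were lower in VV.

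Those 5 were Slc8a3, Fkbp1a, Atp2a2, Cacna2d1 and Trdn. Slc8a3 had the smallest p value, with a log2 difference of -0.29 ± 0.11 SE (95% interval -0.52 to -0.06, adjusted p = 0.378), and its groups overlapped both in sedentary and in exercised mice. Fkbp1a differed by -0.12 ± 0.05 SE, Atp2a2 by -0.29 ± 0.13 SE and Cacna2d1 by -0.18 ± 0.08 SE, each with adjusted p = 0.378. With median-ratio or quantile scaling the difference of Fkbp1a was -0.07. Of the 7 slow-fibre entries, 6 were lower in VV on the deposited scale (median log2 difference -0.23, 0 of 7 called). With the slow-fibre score as a covariate the difference of Atp2a2 was -0.16 (adjusted p = 0.539). The mean score was 6.66 in sedentary and 6.52 in exercised VV, and 6.81 and 6.73 in MM. In VV the score ranged from 6.06 to 6.99 at rest and from 5.93 to 6.78 after the run. In MM it ranged from 6.60 to 7.08 and from 6.66 to 6.81, so the genotypes overlapped. The part of fibre mix in these differences was not tested. Trdn differed by -0.11 ± 0.05 SE (adjusted p = 0.381), and in sedentary mice by -0.16 (adjusted p = 0.835).

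Within treatments, the members with the smallest p values in sedentary mice were Trdn, Slc8a3 (log2 -0.31), Cacna2d1 (log2 -0.22) and Tmem38b (log2 0.20), each at adjusted p = 0.835. In exercised mice they were Fkbp1a (log2 -0.14), Jph1 (log2 -0.14), Orai3 (log2 -0.20) and Slc8a3 (log2 -0.27), each at adjusted p = 0.627. The 95% interval lay within a 1.5-fold change for 28 of 34 members in sedentary, 26 in exercised and 32 over both treatments. Of all 10519 genes tested it did so for 8210, 7935 and 9508. The median log2 difference over both treatments was -0.03 for members and -0.06 for all genes.

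**Figure D4:**
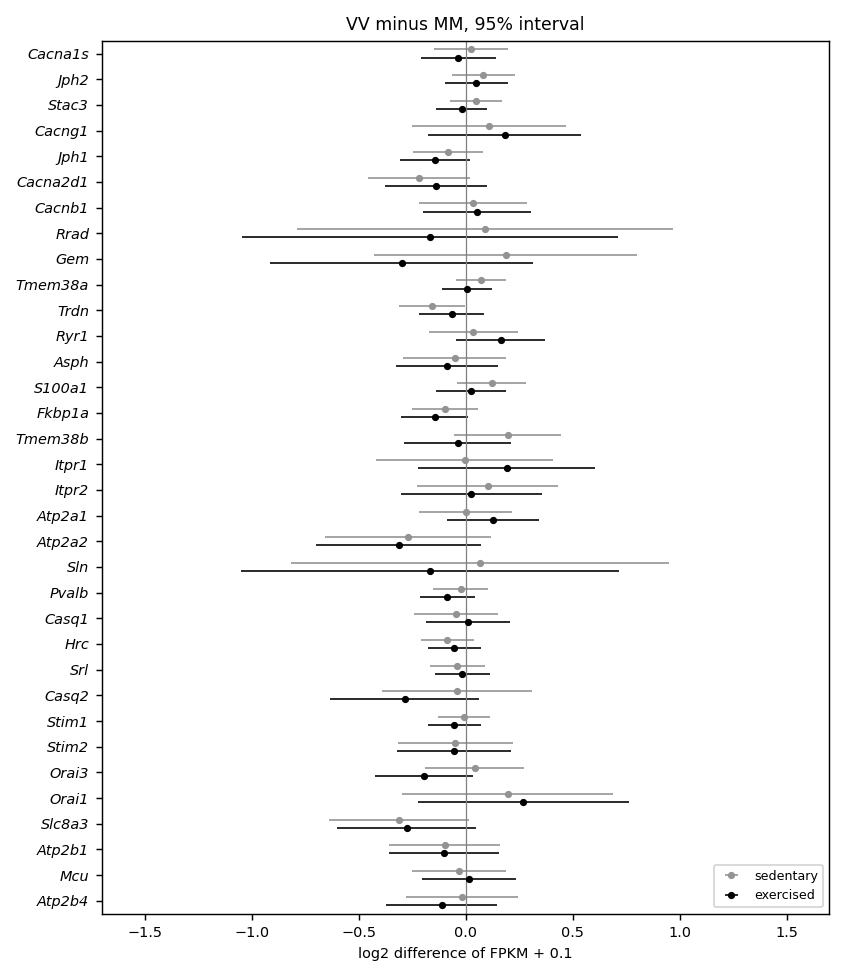
Log2 difference of VV against MM of each of the 34 members with its 95% interval, in sedentary mice (grey) and exercised mice (black), 4 mice per group. All intervals but that of Trdn in sedentary mice span 0, and those of Rrad, Gem and Sln are the widest.

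The exercise effects of VV and MM were compared directly as well. Of the 34 members 0 passed this test (0% of all genes tested) and 0 had an unadjusted p under 0.05 (1.85%). The smallest p values belonged to Orai3 (log2 difference of effects -0.24, 95% interval -0.56 to 0.09), Tmem38b (-0.23, -0.59 to 0.12), Gem (-0.49, -1.36 to 0.38) and Casq2 (-0.24, -0.74 to 0.25). The interval lay within a 1.5-fold change for 26 members and within a 1.25-fold change for 11, and for the other members the interval does not exclude a difference of the size in question. Of all 10519 genes tested, the interval lay within these bounds for 6294 and 1275.

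Some members differ between fibre types, and whole quadriceps mixes them. A slow-fibre score, the mean log2 level of 7 entries (Myh7 with Myh6, Myl2, Myl3, Tnni1, Tnnt1, Tpm3 and Myoz2), ranged from 5.93 to 7.08 over the 16 mice. Mice 2296-2 (exercised VV, 5.93) and 2074-5 (sedentary VV, 6.06) lay below the others, which began at 6.60. Of 6 relations tested by permutation over the 16 mice with 100000 resamples (two-sided), Atp2a2 followed the score with Pearson's r of 0.816 (p = 0.00014, adjusted p = 0.00084) and Spearman's rho of 0.618 (p = 0.0121, adjusted p = 0.0363). Casq2 had r of 0.573 (p = 0.0211, adjusted p = 0.0422) and rho of 0.632 (p = 0.0103, adjusted p = 0.0363). Sln had r of 0.727 (p = 0.00578, adjusted p = 0.0173) and rho of 0.462 (p = 0.0746, adjusted p = 0.149).

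Without the 2 mice at the low end, r was 0.581 for Atp2a2 (adjusted p = 0.175), 0.492 for Casq2 (adjusted p = 0.221) and 0.292 for Sln (adjusted p = 0.464), so none of the 3 passed the test over 14 mice. The relation of Sln fell most and rests on those mice. For Casq2 rho fell from 0.632 to 0.508 (adjusted permutation p = 0.379). Within the 8 sedentary mice r was 0.689, 0.546 and 0.611 for the 3 genes, and within the 8 exercised mice 0.950, 0.560 and 0.855. The rho values were 0.690, 0.714 and 0.452 in sedentary mice, and 0.619, 0.667 and 0.429 in exercised mice. The unadjusted permutation p of rho was 0.0588 or more. That of r was 0.0426 (sedentary) and 0.0181 (exercised) for Atp2a2, and 0.0668 or more for Casq2 and Sln. Each set still held a low mouse, so these values do not show the relation without the low mice. Both low mice are VV, and the fast-fibre members Atp2a1 (r 0.177), Casq1 (r 0.232) and Pvalb (r 0.412) did not pass the test.

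**Figure D5:**
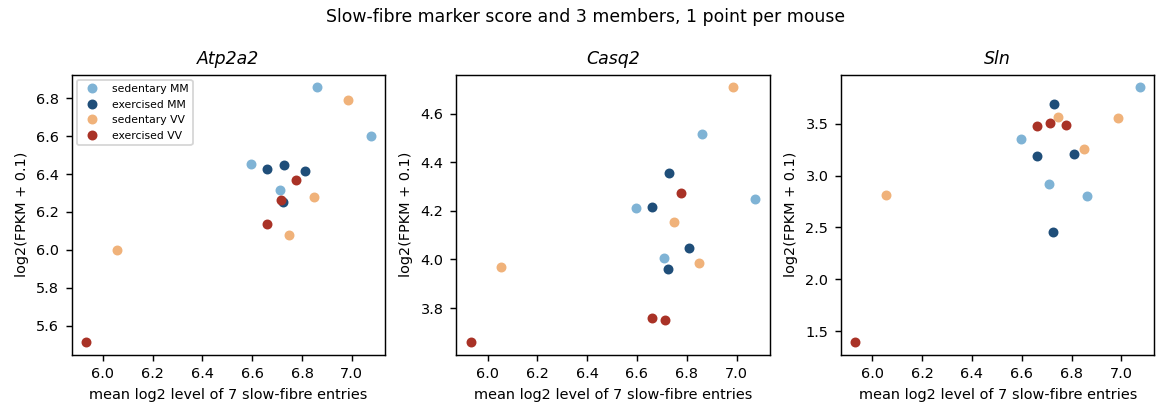
Log2 level of Atp2a2, Casq2 and Sln against the slow-fibre score, the mean log2 level of 7 marker entries, with 1 point per mouse coloured by group. The mouse at the lower left of each panel is 2296-2, with 45.6 FPKM of Atp2a2, 12.6 FPKM of Casq2 and 2.53 FPKM of Sln.

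A wider set of 60 genes of the same pathways, 44 of them tested, gave 0 calls in all 7 comparisons. Over both genotypes 9 of the 44 (20.45%) had an unadjusted p under 0.05 with exercise, all 9 lower on the deposited scale. Of all genes 18.7% reached this p in either direction and 12.9% as lower. The wider set was not recomputed under other scalings. The smallest p value of each list belonged to the calcium channel gamma subunit Cacng6 (log2 -0.18 ± 0.05 SE, adjusted p = 0.0508) for excitation and triad, Homer2, a scaffold protein (-0.30 ± 0.10 SE, adjusted p = 0.143) for release, uptake and storage, and Stimate, a STIM partner (-0.25 ± 0.10 SE, adjusted p = 0.215) for store-operated entry. It belonged to Micu3, a gatekeeper of the uniporter listed as Efha2 (-0.31 ± 0.09 SE, adjusted p = 0.0582), for mitochondrial uptake, and to Tnnc1, slow troponin C (-0.23 ± 0.18 SE, adjusted p = 0.518), for the remaining list. For VV against MM over both treatments 5 of the 44 had an unadjusted p under 0.05, 2 higher and 3 lower in VV, beside 13.1% of all genes. The smallest adjusted p, that of the acetylcholine receptor subunit Chrnb1 and of the reticulum protein Calu, was 0.378. In the other lists the smallest p belonged to Saraf, a brake on store-operated entry (log2 -0.04, adjusted p = 0.629), the outer mitochondrial channel Vdac2 (log2 -0.15, adjusted p = 0.381) and Tnnc1 (log2 -0.28, adjusted p = 0.448).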

How the data were processed

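RNA from whole quadriceps of 16 mice was sequenced as poly(A) stranded libraries. The authors deposited FPKM per gene, 1 column per mouse, and the submitters' notes name TopHat, StringTie, Cuffdiff 2.2.1, SAMtools and mm10, with no annotation stated in those notes. FPKM is not a count, so depth is known only in relative terms. Of 18873 entries, 8 with missing values were left out, and 1 of these names no gene. The 10519 genes whose mean reached 1 FPKM were tested on log2(FPKM + 0.1) with limma 3.58.1 (R 4.3.3) as 4 group means with trended, robust moderation and Benjamini-Hochberg adjustment over all 10519 genes in each of 7 comparisons, at a threshold of 0.05. Fold changes are on the log2(FPKM + 0.1) scale, which understates those of low genes. The fit was tested on simulated data. Members past the threshold and the 4 smallest p values were named in each comparison. Levels in every mouse are given for called members and the 2 highest of each role. Of the wider lists, called genes and the smallest p of each list over both genotypes or both treatments were named. The members and lists were chosen with earlier results of these data known. Alternatives covered the pseudocount, low-value filter, scaling, weights, title-number block, slow-fibre score and each mouse left out.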

Additional observations from a re-analysis of the deposited data

Results flagged for a closer look

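In 6 of 136 groups of 4 mice, 1 mouse lay far from the others by Dixon's test at the 95% level, where 6.8 would be flagged by chance. In exercised VV, mouse 2296-3 had 1.46 FPKM of Gem (others 0.834 to 0.931), 37.0 FPKM of Tmem38b (27.7 to 28.4) and 19.2 FPKM of Casq2 (12.6 to 13.4). In the same group, mouse 2296-2 had 2.53 FPKM of Sln (11.1 to 11.2). In exercised MM, mouse 2297-3 had 169 FPKM of Asph (123 to 130). In sedentary MM, mouse 2032-3 had 534 FPKM of Srl (494 to 499).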

How the results depend on the processing

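Rrad over both genotypes passed in all 8 alternatives (log2 1.34 to 2.09) and without each of 16 mice (1.88 to 2.21). Its log2 difference in VV was 1.25 with a pseudocount of 1 (adjusted p = 0.116). With a minimum mean of 5 FPKM, which removes Rrad, 0 of 30 members passed for exercise in MM and 0 over both genotypes. In VV 1 member, Rrad, passed with median-ratio and with quantile scaling. With array weights 5 of 34 members passed over both genotypes (Stac3, Jph2, Rrad, Hrc and Stim1), beside 573 of all 10519 genes. Leaving out 1 mouse gave 0 to 1 members in MM, 0 to 1 in VV, 1 to 3 over both genotypes and 0 to 0 in the other 4 comparisons. The slow-fibre relation of Casq2 fell to r = 0.484 with median-ratio scaling. Without the 2 mice farthest from the median score r was 0.581 for Atp2a2, 0.492 for Casq2, 0.292 for Sln and -0.0272 for Atp2a1, whose sign turned. The cause of these changes was not tested. For single named members, 258 of 263 values under other settings and 439 of 448 with 1 mouse left out kept direction and side of the threshold. Some mice of different groups share the number before the dash in their titles (8 numbers in all), whose meaning the labels do not give. Only the number 2296 occurs in both sedentary and exercised mice, and only in VV. In MM the block therefore cannot separate exercise from that number, and the calls below do not show independence from it. With that number as a random block (correlation 0.231) the calls over all genes went from 129 to 72 for exercise in MM and from 330 to 153 over both genotypes, and the calls of members stayed at 1 and 1, Rrad in both. Calls over all genes rose to 235 in MM and 573 over both genotypes with array weights. In VV they went from 29 to 53 with median-ratio scaling, 48 with quantile scaling and 5 with only the 2 VV groups in the fit. With 1 mouse left out they were as low as 69 in MM and 17 in VV. The 1 call between genotypes in sedentary mice was lost (0) in 8 of the settings that did not leave out a mouse. It was also lost in most of the fits with 1 mouse left out. The 1 call over both treatments was lost with a minimum mean of 5 FPKM. Without counts, counting error could not be given. The tested members with the largest spread within groups were Rrad, Sln and Gem.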
